A study of Mus musculus with 9 samples.

Results

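The genes described here are 31 mouse genes of protein folding in the endoplasmic reticulum (ER) and of the unfolded protein response, out of 55385 genes in the count table. They were taken by gene symbol, and each symbol matched 1 row of the table. All 31 passed the filter on low counts, as did 15519 genes in all. By role they are 3 stress sensors, 1 transcription factor, 3 heat shock protein chaperones, 4 partners of the chaperone BiP and 2 lectin chaperones. The others are 4 disulfide isomerases, 1 prolyl isomerase, 2 secreted ER stress proteins, 8 genes of ER-associated degradation and 3 of protein entry into the ER.

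Secretory and membrane proteins are folded inside the ER by chaperones, and an excess of unfolded protein is sensed by ATF6, IRE1 (Ern1) and PERK (Eif2ak3) in the ER membrane. ATF6 and the IRE1 product XBP1 act as transcription factors on genes of chaperones and of degradation, while PERK slows translation and raises ATF4. The proximal tubule of the kidney makes large amounts of membrane transporters and endocytic receptors, and its cells are known to be sensitive to loss of blood flow.

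The study profiled polyadenylated RNA of kidney cells sorted for the red fluorescent protein tdTomato, with 3 biological replicates in each of 3 groups. The mice were males of 9 to 12 weeks with a weight of 25 to 30 g. The d14 and 48 h groups came from Sox9IRES-CreERT2/+:R26RtdT/+ mice after ischemia-reperfusion injury of both kidneys, in which tamoxifen switches on tdTomato in cells that express Sox9, a transcription factor of injured and progenitor epithelia. The d14 group had tamoxifen on days 10 and 12 after injury and was collected on day 14, and the 48 h group had tamoxifen when the injury was made and was collected 48 h later. The uninjured group came from Slc34a1IRES-CreERT2/+:R26RtdT/+ mice given tamoxifen, in which the Cre recombinase follows the proximal tubule phosphate transporter gene Slc34a1. All 9 libraries thus carry 1 Cre knock-in allele and 1 tdTomato reporter allele and come from tamoxifen-treated mice, and cells were taken from cortex and outer medulla digested on ice. Against the uninjured group, the Cre allele, the injury and the tamoxifen schedule all change at once, so that they cannot be told apart. The labels do not say if uninjured mice underwent sham surgery. The sorted cells are bulk samples, in which fewer cells of a type and less RNA per cell cannot be told apart.

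Total counts were 19239354 to 30414758 in the d14 libraries, 8036054 to 23794029 in the 48 h libraries and 31585507 to 51631204 in the uninjured libraries. Levels are given as CPM, the count scaled to a common library total with TMM factors, which set most genes level between libraries. Sox9 stood at 38.8, 32.1 and 28.8 CPM in d14 cells, at 7.57, 15.1 and 22.1 CPM in 48 h cells and at 0.152, 0.0351 and 0.635 CPM in uninjured cells, so the groups followed their labels. The 48 h libraries differed most among themselves. Replicate 2 had the fewest counts of all 9, and its log CPM correlated across genes, which are not independent replicates, at 0.8995 with replicate 1 and 0.918 with replicate 3, against 0.945 between those. Replicate 1 had different marker levels, with the lowest Sox9 of the injured libraries and 4404 CPM of Slc34a1 against 1147 and 1895 CPM in the other 48 h libraries. It also had 715 CPM summed over 9 endothelial markers against 87.7 and 140.3 CPM. The 15 proximal tubule markers summed to 3940 to 5217 CPM in d14 cells, 7962 to 14845 CPM in 48 h cells and 23100 to 24853 CPM in uninjured cells. Summed markers of the loop of Henle, of the distal tubule and of principal and intercalated cells were highest in d14 cells and lowest in uninjured cells. The 6 genes of the loop of Henle summed to 3037 to 5629 CPM at d14, 841 to 1082 CPM at 48 h and 380.1 to 483 CPM in uninjured cells. Of these 6, Cldn10 went the other way, with means of 49.9, 92.2 and 154 CPM in d14, 48 h and uninjured cells. The 6 distal tubule genes summed to 2211 to 3743, 245 to 411 and 80.2 to 126 CPM in the same order. Of these 6, Pvalb and Calb1 had lower means at 48 h, at 0.128 and 18.7 CPM, than in uninjured cells, at 0.920 and 20.3 CPM. The largest means at d14 were those of Umod in the loop list, at 3424 CPM, and of Slc12a3 in the distal list, at 2770 CPM. The 7 principal cell markers summed to 474 to 688 CPM at d14, 320 to 379 CPM at 48 h and 59.6 to 81.2 CPM in uninjured cells. The 6 intercalated cell markers summed to 204 to 229, 67.6 to 87.3 and 16.5 to 25.9 CPM in d14, 48 h and uninjured cells. Mitochondrial genes took 15.2% to 25.2% of counts at d14, 32.7% to 39.2% at 48 h and 25.1% to 29.2% in uninjured cells.

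Together the 31 genes held 0.452% to 0.552% of all counts in d14 cells, 0.433% to 0.543% in 48 h cells and 0.383% to 0.435% in uninjured cells. On the TMM scale their summed level was 3698 to 4120 CPM at d14, 4996 to 6402 CPM at 48 h and 4243 to 4877 CPM in uninjured cells. The 48 h libraries were thus all above both other groups, and the d14 libraries were all below the uninjured ones. Without mitochondrial counts the share, which needs no scaling factor, was 0.591% to 0.665% at d14, 0.711% to 0.892% at 48 h and 0.523% to 0.581% in uninjured cells. On that measure 48 h was the highest group and d14 lay above uninjured. As a share of all counts, d14 also lay above uninjured, but 48 h and d14 libraries overlapped. The rank of 48 h over d14 thus depends on the measure. Per kilobase of exon, the lectin chaperone gene Calr had the highest level of the 31 genes in every group, at 196, 328 and 242 CPM per kb in d14, 48 h and uninjured cells. The degradation gene Derl3 had the lowest, at 0.201, 1.71 and 0.168 CPM per kb. Hspa5, which encodes BiP, had rank 6 at d14 with 61.6 CPM per kb and rank 4 at 48 h with 142 CPM per kb.

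**Figure D1:**
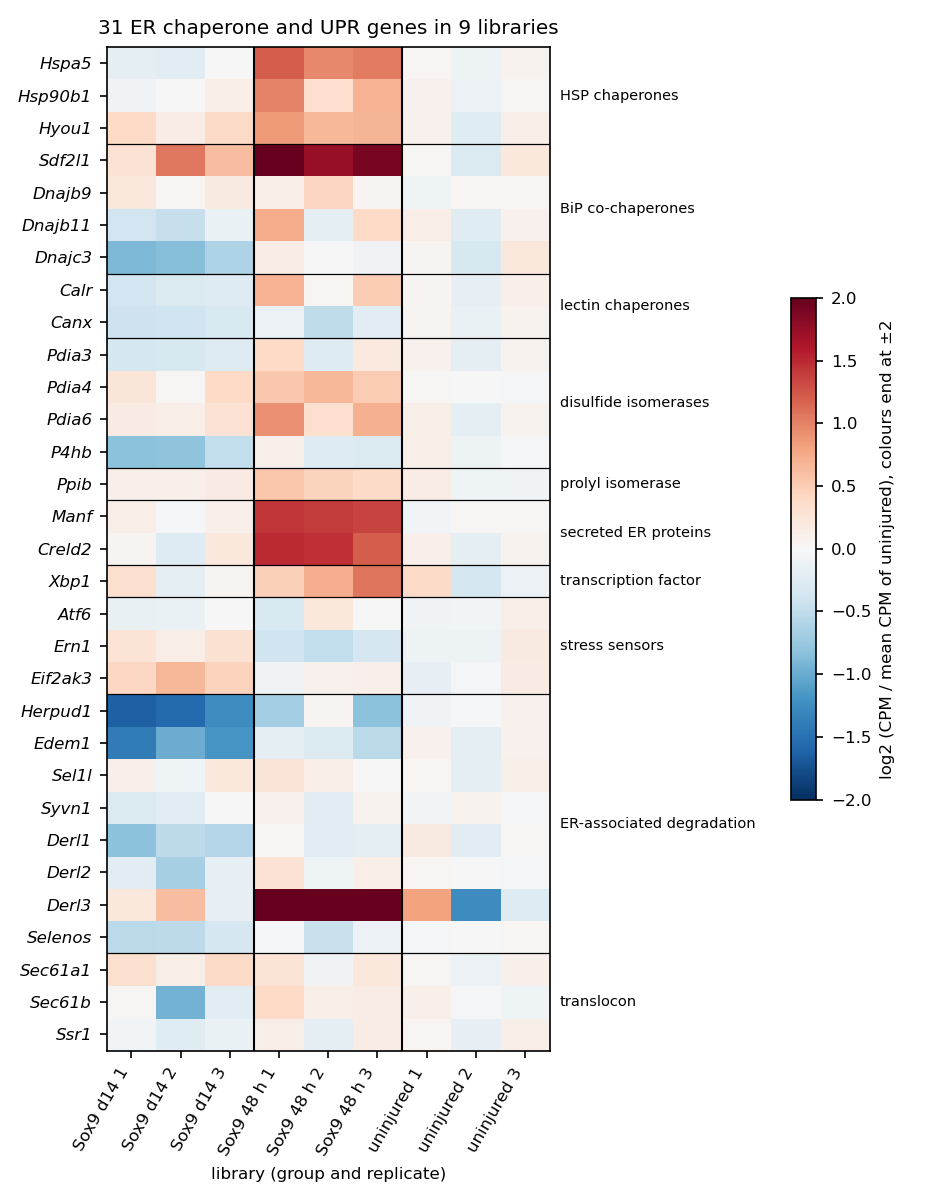
Level of the 31 genes (rows, grouped by role) in each of the 9 libraries (columns), as the log2 ratio of CPM to the mean of the 3 uninjured libraries, with colours ending at 2 in both directions. The 48 h columns are red for Hspa5, Hsp90b1, Hyou1, Sdf2l1, Manf, Creld2 and Derl3, and the d14 columns are blue for Herpud1, Edem1, Dnajc3 and P4hb. The TMM scale sets the zero of the d14 columns: on library size alone d14 values shift up, by 0.57 at the median over genes.

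The comparison of 48 h with uninjured cells asks which genes differ in cells that switched on Sox9 early after injury. A set of 11 of the 31 genes was higher at 48 h and 1 was lower, against 17.4% of all tested genes higher and 11.7% lower, and 19 did not pass the test. The median log2 fold change of the 31 genes was 0.14, beside 0.02 over all tested genes. In 13 of the 31 all 3 libraries at 48 h lay above all uninjured ones and in 1 all lay below, against 21.5% and 20.8% of all genes. The 11 higher genes were Hspa5, Hsp90b1, Hyou1, Sdf2l1, Manf, Creld2, Pdia4, Pdia6, Ppib, Xbp1 and Derl3, and the lower one was Ern1.

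All 3 heat shock protein chaperones of the ER rose at 48 h. Hspa5 (ENSMUSG00000026864.13, chr2:34771970-34777547, plus strand, GRCm38) encodes BiP, which binds unfolded chains and holds the stress sensors inactive. It had 253, 242 and 287 CPM in d14 cells, 661, 553 and 585 CPM in 48 h cells, and 291, 266 and 298 CPM in uninjured cells. The 48 h libraries were all above every other library, while d14 and uninjured libraries overlapped. The rise at 48 h was 2.11-fold over uninjured (log2 1.07 ± 0.12 SE, edgeR adjusted p = 1.01e-04). Hsp90b1 (ENSMUSG00000020048.13, chr10:86690209-86705509, minus strand) encodes GRP94, the HSP90 of the ER. Its level was 345, 359.7 and 396 CPM at d14, 720.4, 457 and 588 CPM at 48 h, and 383, 335 and 369.5 CPM in uninjured cells, with no overlap between 48 h and either other group. The difference between 48 h and uninjured cells was 0.70 ± 0.16 in log2 (SE, edgeR adjusted p = 0.00751). Hyou1 encodes GRP170, which exchanges nucleotide on BiP, and it had 104, 87.6 and 103 CPM at d14, 143, 126 and 127 CPM at 48 h, and 84.3, 67.05 and 86.4 CPM in uninjured cells. Its rise at 48 h was 0.74 ± 0.13 in log2 (edgeR adjusted p = 0.00166). The promoter windows of the first 2, from 250 bases before to 50 after the RefSeq start (RefSeq, GRCm38.p6), are shown because both hold a full ER stress response element, marked in capitals. That element is CCAAT and CCACG with 9 bases between them, on either strand, and it is known as a site of ATF6 together with the factor NF-Y.

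Hspa5 window, chr2:34771840-34772139, plus strand: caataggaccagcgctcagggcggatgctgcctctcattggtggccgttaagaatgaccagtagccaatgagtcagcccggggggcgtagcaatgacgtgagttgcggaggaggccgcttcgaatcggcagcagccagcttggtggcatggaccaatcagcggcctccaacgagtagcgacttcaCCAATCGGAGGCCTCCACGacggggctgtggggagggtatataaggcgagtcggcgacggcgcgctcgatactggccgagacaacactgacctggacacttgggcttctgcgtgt
Hsp90b1 window, chr10:86705395-86705694, minus strand: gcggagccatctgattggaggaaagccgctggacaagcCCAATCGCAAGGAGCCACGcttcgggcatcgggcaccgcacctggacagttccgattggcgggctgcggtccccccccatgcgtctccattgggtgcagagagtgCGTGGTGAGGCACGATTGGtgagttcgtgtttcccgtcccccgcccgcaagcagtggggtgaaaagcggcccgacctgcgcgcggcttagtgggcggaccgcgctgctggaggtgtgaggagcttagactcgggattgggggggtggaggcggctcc

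In the Hspa5 window the element lies on the strand of the gene, with its first base 65 bases before the start. The Hsp90b1 window has 1 element on the strand of the gene, beginning 212 bases before the start, and 1 on the opposite strand, 107 bases before it.

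Both secreted ER stress proteins rose at 48 h, and the spread between replicates was small. Manf (ENSMUSG00000032575.16, chr9:106838312-106891979, minus strand) encodes a small protein that is released from stressed cells and binds BiP. It had 33.5, 29.7 and 32.5 CPM at d14, 82.2, 80.5 and 77.3 CPM at 48 h, and 29.4, 31.1 and 30.8 CPM in uninjured cells. The rise at 48 h was 2.63-fold (log2 1.40 ± 0.10 SE, edgeR adjusted p = 3.67e-06), which is the smallest adjusted p of the 31 genes. Creld2, which encodes an ER stress-inducible protein with a role in disulfide exchange, had 18.7, 15.0 and 20.8 CPM at d14, 50.4, 49.6 and 41.9 CPM at 48 h, and 19.2, 15.9 and 18.9 CPM in uninjured cells. Its rise at 48 h was 2.62-fold (log2 1.39 ± 0.15 SE, edgeR adjusted p = 7.83e-05). For both genes d14 and uninjured libraries overlapped.

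Of the 4 genes grouped here as partners of BiP, only Sdf2l1 passed the test at 48 h. Sdf2l1, which encodes a subunit of an ER chaperone complex, had 5.35, 9.03 and 6.67 CPM at d14, 20.5, 14.5 and 16.3 CPM at 48 h, and 4.43, 3.58 and 5.08 CPM in uninjured cells. Its rise was 3.92-fold over uninjured (log2 1.97 ± 0.25 SE, edgeR adjusted p = 2.43e-04), and the 3 groups did not overlap. The other partners encode J-domain proteins that start the ATPase cycle of BiP. Dnajb11 had 62.8, 59.0 and 74.5 CPM at d14, 136, 71.7 and 108 CPM at 48 h, and 89.3, 69.3 and 86.2 CPM in uninjured cells. The difference between 48 h and uninjured cells was 0.37 ± 0.20 in log2 (edgeR adjusted p = 0.201). Dnajb9 had 32.5, 39.8 and 30.8 CPM at 48 h against 27.8, 30.4 and 30.5 CPM in uninjured cells, which did not overlap but did not pass the test (edgeR adjusted p = 0.234). Dnajc3 differed by 0.03 ± 0.15 in log2 between 48 h and uninjured cells (edgeR adjusted p = 0.896).

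Of the 4 disulfide isomerases, which form and rearrange disulfide bonds, Pdia4 and Pdia6 rose at 48 h. Pdia4 had 97.2, 83.4 and 107 CPM at d14, 119, 129 and 117 CPM at 48 h, and 83.04, 82.3 and 80.0 CPM in uninjured cells. Pdia6 had 139, 137 and 152 CPM at d14, 235, 156 and 203 CPM at 48 h, and 134, 109 and 130.3 CPM in uninjured cells. The rises over uninjured were 0.57 ± 0.11 for Pdia4 (edgeR adjusted p = 0.00358) and 0.67 ± 0.15 for Pdia6 (edgeR adjusted p = 0.00708), both in log2. Pdia3, which acts on glycoproteins held by the lectin chaperones, had 527, 334 and 457 CPM at 48 h and 424, 352 and 419.6 CPM in uninjured cells (log2 0.14 ± 0.16, edgeR adjusted p = 0.554). P4hb, which encodes protein disulfide isomerase and is also a subunit of collagen prolyl 4-hydroxylase, differed by -0.14 ± 0.15 (edgeR adjusted p = 0.517). The prolyl isomerase Ppib, or cyclophilin B, had 206, 192 and 182 CPM at 48 h against 155, 132 and 134 CPM in uninjured cells, a rise of 0.46 ± 0.11 in log2 (edgeR adjusted p = 0.00840).

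The lectin chaperones hold newly made glycoproteins until they are folded, and neither passed the test at 48 h. Calr, for calreticulin, had 534, 572 and 586 CPM at d14, 1132, 716 and 988 CPM at 48 h, and 724, 624 and 744 CPM in uninjured cells. The difference at 48 h was 0.44 ± 0.17 in log2, with a 95% interval of 0.08 to 0.80 and an edgeR adjusted p of 0.0682, and 48 h and uninjured libraries overlapped. Canx, for calnexin, had 378, 381 and 406 CPM at d14, 466, 355 and 431 CPM at 48 h, and 523, 458 and 529 CPM in uninjured cells, a difference at 48 h of -0.27 ± 0.13 (edgeR adjusted p = 0.142). A ratio of counts within a library needs no scaling between libraries, and the ratios given here were chosen after the values were seen. The counts of Hspa5 over those of Canx were 0.668, 0.636 and 0.708 at d14, 1.42, 1.56 and 1.36 at 48 h, and 0.557, 0.581 and 0.563 in uninjured cells. The ratio was thus highest in the 48 h libraries, and the d14 libraries were also above the uninjured ones. At d14 over uninjured, Canx itself was lower, at -0.37 in log2 on the TMM scale, and Hspa5 was at -0.13. The ratio does not separate a change of Hspa5 from one of Canx. In 48 h cells, replicate 1 was the highest and replicate 2 the lowest library for Calr, Pdia3, Dnajb11, Hsp90b1 and Pdia6.

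The transcription factor gene Xbp1 rose at 48 h, while the sensor genes did not. Xbp1, whose transcript is spliced by IRE1, had 83.2, 59.1 and 69.5 CPM at d14, 92.7, 111 and 141 CPM at 48 h, and 86.9, 52.2 and 61.7 CPM in uninjured cells. The rise was 0.78 ± 0.21 in log2 (edgeR adjusted p = 0.0192), and counts per gene do not show which share of the transcript was spliced. The call for Xbp1 was lost without replicate 3 of the 48 h group (log2 0.60, edgeR adjusted p = 0.0788), without replicate 2 of the uninjured group (log2 0.62, edgeR adjusted p = 0.0778) and without replicate 3 of the uninjured group (log2 0.72, edgeR adjusted p = 0.0741). Ern1, which encodes IRE1, had 31.1, 28.03 and 31.6 CPM at d14, 19.5, 18.3 and 20.3 CPM at 48 h, and 24.0, 23.8 and 29.1 CPM in uninjured cells. It fell at 48 h by 0.40 ± 0.13 in log2 (edgeR adjusted p = 0.0346). That call was lost when any of 7 libraries was left out, namely replicates 1 and 3 of the d14 group and of the uninjured group and each 48 h replicate. The log2 values were then -0.45 to -0.31 and edgeR adjusted p 0.0538 to 0.151. Atf6 had 44.9, 64.2 and 55.8 CPM at 48 h and 52.5, 53.3 and 59.9 CPM in uninjured cells, a difference of -0.01 ± 0.13 (95% interval -0.31 to 0.28). Eif2ak3, which encodes PERK, had 30.2, 33.6 and 34.0 CPM at 48 h and 28.4, 31.2 and 35.8 CPM in uninjured cells, a difference of 0.04 ± 0.12 (95% interval -0.24 to 0.31).

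Genes of ER-associated degradation, which moves misfolded proteins out of the ER to the proteasome, had 1 of 8 higher and 0 lower at 48 h, against 17.4% and 11.7% of all genes, so that the count does not set them apart from other genes. The higher one was Derl3, a derlin of the membrane channel, and it was the least abundant of the 31 genes. Its counts were 11, 13 and 11 in d14 libraries, 25, 52 and 29 in 48 h libraries, and 27, 4 and 11 in uninjured libraries. These were 0.387, 0.515 and 0.299 CPM at d14, 1.40, 7.47 and 1.34 CPM at 48 h, and 0.586, 0.140 and 0.279 CPM in uninjured cells. The log2 fold change was 3.27 ± 0.91 (95% interval 1.27 to 5.27, edgeR adjusted p = 0.0199). It was 2.00 without replicate 2 of the 48 h group (edgeR adjusted p = 0.110), 2.92 without replicate 2 of the uninjured group (edgeR adjusted p = 0.0653) and 3.14 without replicate 3 of that group (edgeR adjusted p = 0.0676). The call was lost in each case. With the replicate number as a block it was 2.93 (edgeR adjusted p = 0.0656). Herpud1, which scaffolds the degradation complex, had 66.0, 69.5 and 86.3 CPM at d14, 127, 211 and 116 CPM at 48 h, and 195, 200.4 and 217 CPM in uninjured cells, where 48 h replicate 2 alone reached the uninjured range. The difference of -0.43 ± 0.20 at 48 h did not pass the test (edgeR adjusted p = 0.140). The other 6 genes of degradation and the 3 of protein entry differed by -0.33 to 0.23 in log2 between 48 h and uninjured cells, and none passed the test.

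Under library size alone 11 genes were higher at 48 h and 0 lower, against 16.0% and 10.5% of all genes. That scaling could change little here, as it moved the median over all genes by -0.0081 in log2. Without 48 h replicate 1, 11 were also higher and 0 lower, beside 2645 and 1995 of all genes. Without 48 h replicate 2, 12 were higher and 1 lower, beside 2837 and 1737 of all genes. The calls of Ern1 and Derl3 were lost in that last fit, so that its counts include other genes gained. Apart from Xbp1 and Derl3, the 9 calls of higher genes at 48 h were kept whichever of the 9 libraries was left out. These were Hspa5, Hsp90b1, Hyou1, Sdf2l1, Manf, Creld2, Pdia4, Pdia6 and Ppib. Markers of neutrophils were higher in the same libraries. The 7 genes of that list summed to 3.43 to 5.90 CPM at d14, 113 to 343 CPM at 48 h and 2.80 to 8.003 CPM in uninjured cells, and all 5 tested were higher at 48 h. The 10 macrophage and monocyte markers summed to 43.4 to 116, 78.6 to 307 and 26.3 to 33.9 CPM in d14, 48 h and uninjured cells. The 9 B and plasma cell markers summed to 3.35 to 3.98, 5.61 to 6.84 and 5.43 to 9.76 CPM in the same order, with the plasma cell gene Tnfrsf17 at 0 in all 9 libraries. The 10 markers of injured tubule summed to 11454 to 15444, 10770 to 24024 and 331 to 534 CPM. Of the principal and intercalated cell markers, 6 of 7 and 4 of 6 were higher at 48 h than in uninjured cells, and 0 were lower. Of all tested genes, 17.4% were higher and 11.7% lower. The part of these cell types in the differences of ER genes was not tested.

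**Figure D2:**
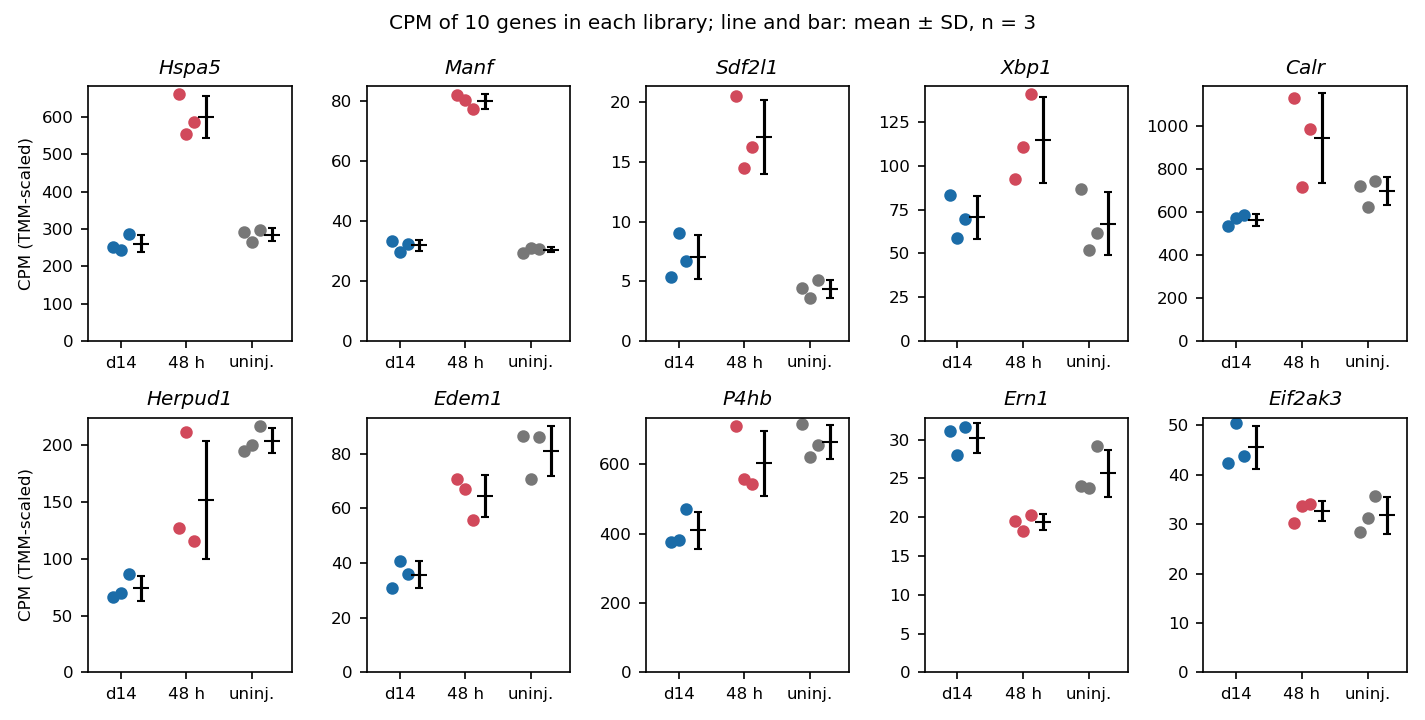
CPM (TMM-scaled) of 10 of the genes in each library, with d14, 48 h and uninjured cells from left to right, points for libraries and bars for the mean and SD of 3 replicates. Hspa5, Manf and Sdf2l1 peak at 48 h without overlap, Herpud1, Edem1 and P4hb are lowest at d14, and Ern1 is lowest and Eif2ak3 not raised at 48 h.

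The comparison of d14 with uninjured cells asks how cells still expressing Sox9 late after injury differ from uninjured proximal tubule cells. Of the 31 genes, 2 were higher and 7 lower at d14, against 25.1% of all tested genes higher and 20.7% lower, while 22 did not pass the test. On library size alone, with no TMM factor, 18 were higher and 2 lower, against 47.1% and 9.13% of all genes. The TMM factors were 1.21 to 1.48 in d14 libraries, 0.848 to 0.912 at 48 h and 0.846 to 0.902 in uninjured libraries, and leaving them out moved the median over all tested genes by 0.57 in log2, to 0.63. The median of the 31 genes was -0.09 beside 0.06 over all genes under TMM, a distance of -0.15 that library size alone did not move. In 6 of the 31 genes all d14 libraries lay above all uninjured ones and in 10 all lay below, against 34.4% and 28.9% of all genes. Of the 11 genes that were higher at 48 h, 1 was called at d14, and the same share of all 2700 genes higher at 48 h was not counted.

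The 7 genes that were lower at d14 were Herpud1, Edem1, Derl1 and Selenos of degradation, the BiP partner Dnajc3, the disulfide isomerase P4hb and the lectin chaperone Canx. Herpud1 (ENSMUSG00000031770.16, chr8:94386438-94395377, plus strand) had the largest fall, of 1.46 ± 0.21 in log2 (edgeR adjusted p = 1.80e-04), and its d14 libraries lay below every other library. Edem1, which helps to pull misfolded glycoproteins out of the folding cycle, had 30.7, 40.8 and 35.9 CPM at d14, 70.7, 67.3 and 55.8 CPM at 48 h, and 86.6, 70.6 and 86.3 CPM in uninjured cells. It fell at d14 by 1.18 ± 0.14 in log2 (edgeR adjusted p = 4.92e-05). These 2 genes were the ones that were also lower on library size alone, at -0.91 for Herpud1 and -0.63 for Edem1, with edgeR adjusted p of 0.00148 and 0.00145. The counts of Herpud1 over those of Canx in a library were 0.174, 0.182 and 0.213 at d14, 0.274, 0.595 and 0.269 at 48 h, and 0.373, 0.438 and 0.409 in uninjured cells, with the d14 libraries below all others.

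Dnajc3, the BiP partner also known as an inhibitor of PERK-type kinases, had 77.5, 79.3 and 93.6 CPM at d14, 159.6, 145 and 137 CPM at 48 h, and 149, 115 and 168 CPM in uninjured cells. P4hb had 377, 381 and 471 CPM at d14, 710.1, 557 and 542 CPM at 48 h, and 717, 621 and 656 CPM in uninjured cells. Derl1, a derlin, had 54.3, 66.8 and 64.1 CPM at d14, 98.2, 82.6 and 84.4 CPM at 48 h, and 109, 82.8 and 97.5 CPM in uninjured cells. In each of the 3 genes the d14 libraries lay below all others, and the 48 h and uninjured libraries overlapped. Against uninjured cells the differences were -0.78 ± 0.15 for Dnajc3, -0.70 ± 0.15 for P4hb and -0.64 ± 0.13 for Derl1 in log2, with edgeR adjusted p of 0.00118, 0.00234 and 0.00221. Without TMM factors they were -0.22, -0.14 and -0.09, and none passed the test. Selenos, which tethers the degradation ATPase to the derlins, had 27.2, 27.6 and 31.6 CPM at d14, 38.7, 29.2 and 36.6 CPM at 48 h, and 38.5, 39.9 and 40.8 CPM in uninjured cells (log2 -0.46 ± 0.13 at d14, edgeR adjusted p = 0.0107). Canx was lower by 0.37 ± 0.13 in log2 at d14 (edgeR adjusted p = 0.0335). On library size alone the direction turned for both, to 0.10 for Selenos and 0.19 for Canx, without passing the test. The call for Canx was lost when any d14 replicate or replicate 1 or 3 of the uninjured group was left out, at log2 values of -0.41 to -0.34 and edgeR adjusted p of 0.0630 to 0.109.

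The 2 genes that were higher at d14 were Eif2ak3 and Sdf2l1. Eif2ak3 (ENSMUSG00000031668.14, chr6:70844515-70905245, plus strand) had 42.3, 50.4 and 43.8 CPM at d14, 30.2, 33.6 and 34.0 CPM at 48 h, and 28.4, 31.2 and 35.8 CPM in uninjured cells, so that the d14 libraries lay above all others. The rise over uninjured was 0.52 ± 0.12 in log2 (edgeR adjusted p = 0.00500). On library size alone it was 1.08, beside a median of 0.63 over all genes on that scale. Sdf2l1 rose by 0.68 ± 0.25 (edgeR adjusted p = 0.0425). Its call was lost without replicate 2 or 3 of the d14 group, replicate 3 of the 48 h group or replicate 1 or 2 of the uninjured group, at log2 values of 0.46 to 0.72 and edgeR adjusted p of 0.0575 to 0.178. With the replicate number as a block it was 0.68 (edgeR adjusted p = 0.0767).

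Of the 11 genes that rose at 48 h, Sdf2l1 was also called higher at d14 than in uninjured cells, and the other 10 did not pass the test there. The d14 over uninjured log2 fold changes on the TMM scale were -0.13 for Hspa5 (95% interval -0.39 to 0.14), 0.02 for Hsp90b1 (-0.33 to 0.36), 0.07 for Manf (-0.15 to 0.28), 0.02 for Creld2 (-0.31 to 0.34) and 0.08 for Xbp1 (-0.39 to 0.54). By library size alone all 5 were higher at d14, at 0.44 for Hspa5, 0.58 for Hsp90b1, 0.64 for Manf, 0.59 for Creld2 and 0.66 for Xbp1, beside the median of 0.63 over all genes on that scale. Relative to that median they were thus at -0.19, -0.05, 0.01, -0.04 and 0.03. Hyou1, Pdia4, Pdia6 and Ppib were at 0.31, 0.23, 0.20 and 0.12 on the TMM scale, and their d14 libraries lay above all uninjured ones in Hyou1, Pdia4 and Pdia6 without passing the test. By library size alone these 4 were higher at d14, at 0.89, 0.80, 0.76 and 0.69. Derl3 was at 0.22 on the TMM scale, with a 95% interval of -1.68 to 2.13.

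**Figure D3:**
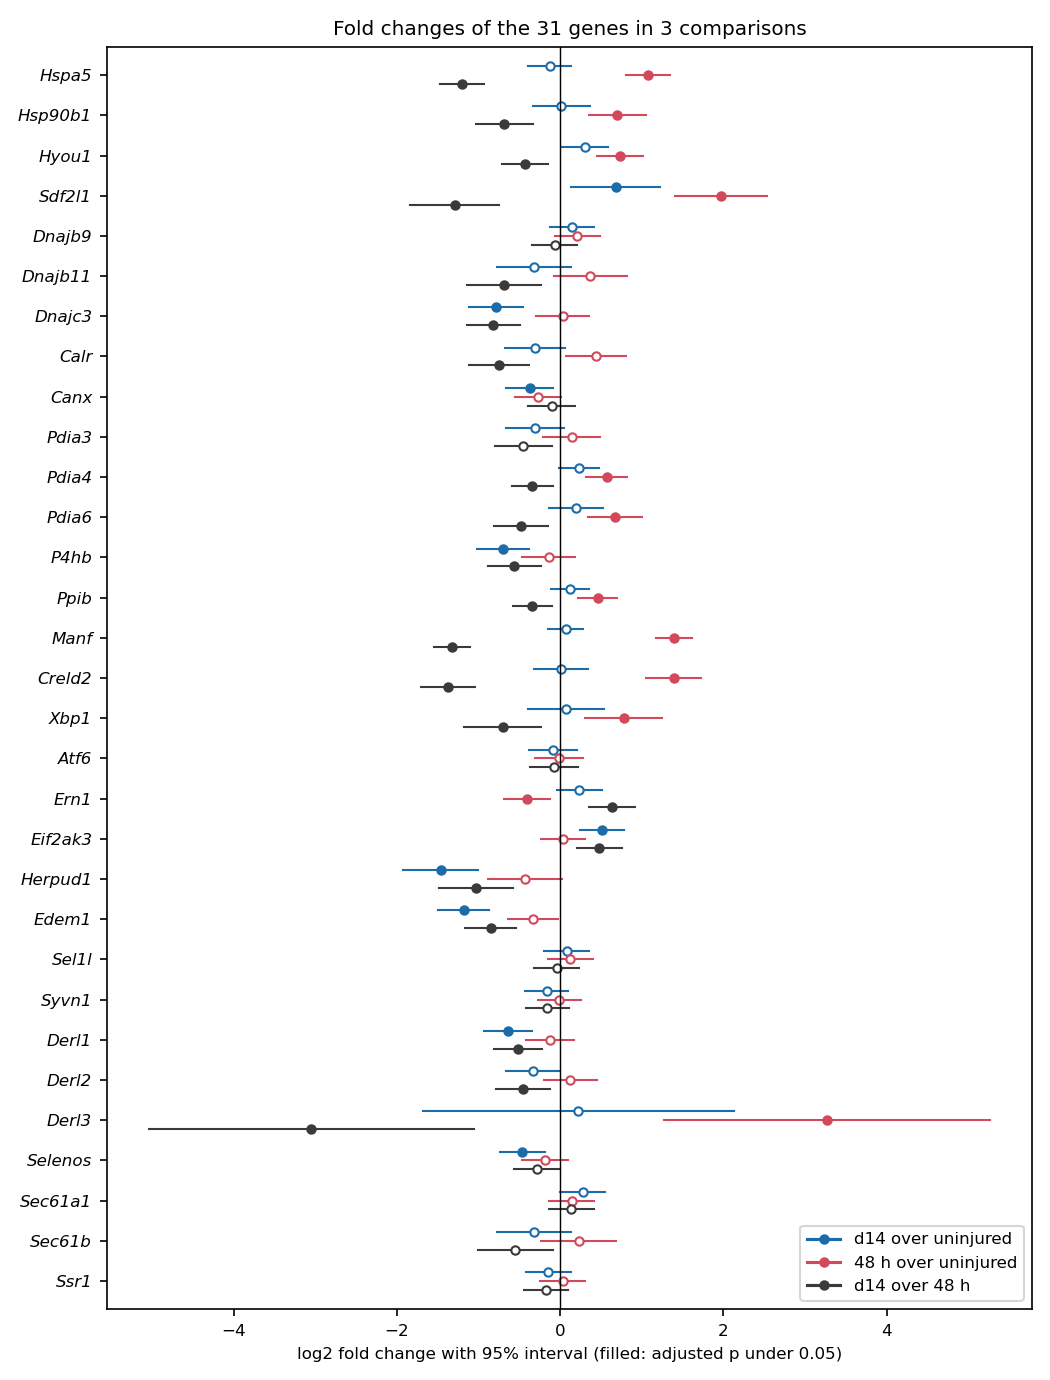
Log2 fold changes of the 31 genes with 95% intervals for d14 over uninjured, 48 h over uninjured and d14 over 48 h cells, filled where the edgeR adjusted p is under 0.05. For Hspa5, Manf and Creld2 the 48 h value lies above 1 and the d14 over uninjured value at -0.13 to 0.07 on the TMM scale shown, where library size alone moves d14 values up by 0.57 at the median.

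The comparison of d14 with 48 h cells is the test of the difference between the late and the early Sox9 cells, and it shares its libraries with the comparisons above. Of the 31 genes, 19 were lower and 2 higher at d14 and 10 did not pass the test, against 16.3% of all genes lower and 16.8% higher. On library size alone 5 were lower and 9 higher, against 6.02% and 43.9% of all genes. The median of the 31 genes was -0.48 beside 0.05 over all genes under TMM, a distance of -0.53 that was the same on library size alone, where the medians were 0.10 and 0.63. In 20 of the 31 genes all d14 libraries lay below all 48 h ones and in 2 all lay above, against 20.6% and 26.7% of all genes. All 11 genes that were higher at 48 h than in uninjured cells were lower at d14 than at 48 h, a pattern that the shared 48 h libraries favour. How many of all 2700 genes higher at 48 h had that pattern was not counted.

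The largest fall at d14 against 48 h was that of Derl3, at a log2 fold change of -3.05 ± 0.90 (edgeR adjusted p = 0.0243). Both secreted ER stress proteins, the BiP partner Sdf2l1 and Hspa5 came next. Their log2 fold changes were -1.37 ± 0.15 for Creld2 (edgeR adjusted p = 1.06e-04), -1.33 ± 0.10 for Manf (edgeR adjusted p = 1.49e-05), -1.29 ± 0.25 for Sdf2l1 (edgeR adjusted p = 0.00280) and -1.20 ± 0.12 for Hspa5 (edgeR adjusted p = 6.71e-05). These 4 and Derl3 were the 5 genes that were also lower on library size alone, at -0.80 for Creld2, -0.75 for Manf, -0.74 for Sdf2l1, -0.63 for Hspa5 and -2.47 for Derl3. Herpud1 fell by 1.03 ± 0.21, Edem1 by 0.85 ± 0.14, Dnajc3 by 0.82 ± 0.15, Calr by 0.74 ± 0.17 and Hsp90b1 by 0.68 ± 0.16, with edgeR adjusted p of 0.00131 to 0.00780. With library size alone these 5 remained below 0, at -0.46, -0.28, -0.25, -0.18 and -0.11, and none passed the test. The calls of all 9 genes other than Derl3 were kept whichever library was left out.

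The remaining 9 lower genes differed by -0.70 for Xbp1, -0.69 for Dnajb11, -0.56 for P4hb, -0.52 for Derl1, -0.48 for Pdia6, -0.46 for Derl2, -0.43 for Hyou1 and -0.34 for both Pdia4 and Ppib, with edgeR adjusted p of 0.0128 to 0.0401. On library size alone the direction turned for 7 of them, to 0.24 for Pdia4, 0.23 for Ppib, 0.16 for Hyou1, 0.13 for Derl2, 0.10 for Pdia6, 0.05 for Derl1 and 0.01 for P4hb. Xbp1 and Dnajb11 were at -0.12 there, and none of the 9 passed the test. Each of these 9 calls and that of Derl3 was lost without at least 1 library. Without replicate 2 of the d14 group 10 genes were called lower and the call of Eif2ak3 was also lost. Without replicate 1 of the d14 group 12 were called lower, while 8 of the 19 calls were lost. The count called lower, which can include genes gained, was 14 without d14 replicate 3, 13 without 48 h replicate 1, 18 without 48 h replicate 2, 14 without 48 h replicate 3, 17 without uninjured replicate 1, 20 without uninjured replicate 2 and 17 without uninjured replicate 3. Over all tested genes, 2533 were called lower with all libraries and 1827 to 2645 with 1 left out. Among the lost calls, adjusted p in edgeR ranged from 0.0511 to 0.165, and Derl3 moved to -1.77 without replicate 2 of the 48 h group, against -3.05 with all libraries.

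The 2 genes that were higher at d14 than at 48 h both encode sensors. Ern1 rose by 0.64 ± 0.13 in log2 (edgeR adjusted p = 0.00343) and Eif2ak3 by 0.48 ± 0.12 (edgeR adjusted p = 0.0131). On library size alone they rose by 1.22 and 1.05, beside a median of 0.63 over all genes on that scale. Relative to that median they were at 0.59 and 0.42. The d14 libraries of both lay above all 48 h libraries. The third sensor gene, Atf6, had 49.8, 50.6 and 55.7 CPM at d14 and 44.9, 64.2 and 55.8 CPM at 48 h, a difference of -0.07 ± 0.13 that did not pass the test. Scaled by library size alone, it was higher at d14 by 0.49, which is below the median of all genes on that scale. The counts of Ern1 over those of Hspa5 in a library were 0.123, 0.116 and 0.110 at d14, 0.0294, 0.0330 and 0.0347 at 48 h, and 0.0824, 0.0897 and 0.0979 in uninjured cells, so that the groups did not overlap and the ratio was lowest at 48 h. Hspa5 was itself higher at 48 h than in uninjured cells, by 1.07 in log2, so that the low ratio there reflects both genes.

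A set of 8 of the 31 genes passed the test in none of the 3 comparisons: Dnajb9, Pdia3, Atf6, Sel1l, Syvn1, Sec61a1, Sec61b and Ssr1. On library size alone Dnajb9, Atf6, Sel1l, Syvn1, Sec61a1 and Ssr1 were higher at d14 than in uninjured cells by 0.39 to 0.85 in log2, and than at 48 h by 0.41 to 0.71. The median over all genes was 0.63 in both comparisons on that scale. Sel1l and Syvn1 encode the adaptor and the ubiquitin ligase of the main degradation complex. Sel1l had 111, 98.3 and 121 CPM at d14, 124, 113 and 103 CPM at 48 h, and 107, 91.7 and 113 CPM in uninjured cells. Syvn1 had 35.8, 37.6 and 43.1 CPM, 46.3, 37.8 and 45.5 CPM, and 42.1, 45.9 and 42.7 CPM in the same order. The groups overlapped for both, and 95% intervals of the log2 fold changes reached from -0.32 to 0.40 for Sel1l and from -0.43 to 0.25 for Syvn1 over the 3 comparisons. Sec61a1 and Sec61b encode the protein channel into the ER, and Ssr1 a channel partner. Sec61b was the most uncertain of the 3, with 28.1, 14.4 and 24.1 CPM at d14, 36.6, 30.0 and 30.6 CPM at 48 h, and 29.7, 27.3 and 26.2 CPM in uninjured cells. Its d14 over 48 h difference was -0.55 ± 0.21 (edgeR adjusted p = 0.0649). Pdia3 missed the threshold in the same comparison at -0.45 ± 0.16 (edgeR adjusted p = 0.0517), and without TMM factors these turned to 0.05 for Sec61b and 0.12 for Pdia3.

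The promoter windows of 26 of the 31 genes were found in the RefSeq table by symbol, and those of Manf, Atf6, Derl1, Hyou1 and Sec61a1 were not used here. The full element, CCAAT and CCACG with 9 bases between, searched on both strands, was in the windows of 9 of the 26 genes, or 34.6%, against 37 of 27025 genes with a window, or 0.137%. The looser form, with any base after CCAC, contains the full one and was in 13 of the 26, or 50%, against 116 of 27025 genes, or 0.429%. The list holds genes picked for this response, and the element is a known site of its factor ATF6. The high shares thus go with the choice of list and are no test of these data. Of the 9 genes that were higher at 48 h and had a window, 5 held the full element, against 4 of the 17 that were not, a difference that was not tested. Each site is printed on its own strand, 5′ to 3′, with the fixed letters and the last base in capitals, to show the spacer of each gene. Genes higher at 48 h come first.

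Hspa5, chr2:34772025-34772043: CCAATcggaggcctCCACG
Hsp90b1, first, chr10:86705638-86705656: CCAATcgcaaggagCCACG
Hsp90b1, second, chr10:86705533-86705551: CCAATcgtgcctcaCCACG
Creld2, chr15:88819520-88819538: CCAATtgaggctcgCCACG
Pdia6, chr12:17266491-17266509: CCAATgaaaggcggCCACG
Derl3, chr10:75893242-75893260: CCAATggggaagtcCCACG
Pdia4, chr6:47813602-47813620: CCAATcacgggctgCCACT
Calr, chr8:84847075-84847093: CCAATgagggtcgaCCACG
Canx, chr11:50325800-50325818: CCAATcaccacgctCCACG
Dnajc3, chr14:118937827-118937845: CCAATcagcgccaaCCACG
Syvn1, chr19:6046532-6046550: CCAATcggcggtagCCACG
Herpud1, chr8:94386411-94386429: CCAATggatggcagCCACA
Pdia3, chr2:121413873-121413891: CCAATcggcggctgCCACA
Derl2, chr11:71019471-71019489: CCAATccctgccggCCACA

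The windows of Sdf2l1, Xbp1 and Ppib, which were higher at 48 h, held neither form. Syvn1 and Pdia3 held a site and were called in no comparison. The string TGACGTGG, known as the unfolded protein response element of XBP1 and searched on both strands, was in none of the 26 windows, against 0.714% of genes with a window. The shorter TGACGTG, which the longer string contains, was in that of Hspa5 alone, against 2.22% of genes. A match in letters is a description of the window and not a binding site.

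Other genes of the pathway were counted by lists of their own. The PERK and ATF4 arm had 15 genes, with 5 (33.3%) higher and 3 (20.0%) lower at d14 than in uninjured cells, against 25.1% and 20.7% of all tested genes. The counts at 48 h over uninjured were 5 (33.3%) higher and 3 (20.0%) lower, against 17.4% and 11.7% of all genes. Those at d14 over 48 h were 2 (13.3%) higher and 2 (13.3%) lower, against 16.8% and 16.3%. Ddit4, a stress-induced inhibitor of mTORC1, had 39.1 ± 8.46 CPM at d14, 11.6 ± 2.70 CPM at 48 h and 2.64 ± 0.375 CPM in uninjured cells (SD, n = 3 each). In the same order Nupr1, a stress-induced chromatin protein, had 10.3 ± 2.93, 7.94 ± 2.28 and 0.292 ± 0.264 CPM, and Asns, asparagine synthetase, had 11.3 ± 1.94, 8.56 ± 3.63 and 1.01 ± 0.283 CPM. All 3 were higher than in uninjured cells in both groups (edgeR adjusted p of 2.81e-07 to 1.73e-04). Slc3a2, the heavy chain of amino acid transporters, was lower, with 105 ± 2.42, 163 ± 4.76 and 260.0 ± 57.8 CPM in the same order. Eif2s1, the substrate of PERK, was lower at d14 than at 48 h by 0.45 ± 0.14 in log2 (edgeR adjusted p = 0.0298). Atf4 and Ddit3 (CHOP), named after their values were seen, passed the test in none of the 3 comparisons. Atf4 had 51.4 ± 1.78, 48.7 ± 8.97 and 49.6 ± 1.67 CPM and Ddit3 5.42 ± 0.795, 6.25 ± 0.881 and 3.58 ± 0.925 CPM in d14, 48 h and uninjured cells.

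The 16 tested other regulators of the response had 3 (18.8%) higher and 5 (31.2%) lower at d14 than in uninjured cells, against 25.1% and 20.7% of all tested genes. At 48 h, 1 (6.25%) was higher and 3 (18.8%) lower than in uninjured cells, against 17.4% and 11.7% of all genes. At d14, 4 (25.0%) were higher and 1 (6.25%) lower than at 48 h, against 16.8% and 16.3%. Tmbim6, an ER membrane protein that dampens IRE1, was lower in both, with 1047 ± 112 CPM at d14, 1254 ± 73.0 CPM at 48 h and 2158 ± 132 CPM in uninjured cells. Wfs1, an ER membrane protein of calcium balance, was higher at d14 than at 48 h (log2 0.95 ± 0.14, edgeR adjusted p = 6.93e-04) and than in uninjured cells (log2 1.37 ± 0.14, edgeR adjusted p = 1.64e-05). Traf2, an adaptor bound by IRE1, was higher than in uninjured cells in both. Crebrf, a negative regulator of the response, was lower at 48 h than in uninjured cells (log2 -0.97 ± 0.16, edgeR adjusted p = 0.00130) and higher at d14 than at 48 h. Mbtps1, the site-1 protease that cuts ATF6, was also higher at d14 than at 48 h (log2 0.57 ± 0.12, edgeR adjusted p = 0.00563). Creb3l2, a relative of ATF6, was lower at 48 h than in uninjured cells by 0.75 ± 0.12 in log2 (edgeR adjusted p = 0.00105).

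The 33 tested other ER chaperones had 10 (30.3%) higher and 4 (12.1%) lower at d14 than in uninjured cells, against 25.1% and 20.7% of all tested genes. The counts at 48 h over uninjured were 5 (15.2%) higher and 2 (6.06%) lower, against 17.4% and 11.7% of all genes. Those at d14 over 48 h were 6 (18.2%) higher and 2 (6.06%) lower, against 16.8% and 16.3%. The calcium-binding protein Rcn1 had 32.9 ± 4.75 CPM at d14, 15.9 ± 6.37 CPM at 48 h and 2.08 ± 0.240 CPM in uninjured cells. The collagen chaperone Serpinh1 had 131 ± 1.76, 98.0 ± 30.4 and 32.2 ± 1.64 CPM in the same order. Calu, for the calcium-binding protein calumenin, had 98.4 ± 7.65, 87.2 ± 2.93 and 55.1 ± 8.24 CPM. The 3 were higher than in uninjured cells in both groups (edgeR adjusted p of 7.90e-07 to 0.00257). Dnajc10, a J-domain protein that reduces disulfides, was higher at d14 than at 48 h by 0.62 ± 0.15 (edgeR adjusted p = 0.00954), while Mcfd2, a cargo receptor subunit, was lower by 0.92 ± 0.10 (edgeR adjusted p = 8.03e-05). Under library size only, such values at d14 lie higher by the shift given above.

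The 23 tested other genes of oxidative folding had 6 (26.1%) higher and 8 (34.8%) lower at d14 than in uninjured cells, against 25.1% and 20.7% of all tested genes. At 48 h, 6 (26.1%) were higher and 2 (8.7%) lower than in uninjured cells, against 17.4% and 11.7% of all genes. At d14, 6 (26.1%) were higher and 7 (30.4%) lower than at 48 h, against 16.8% and 16.3%. Erp29, an ER lumen chaperone of the disulfide isomerase family, was higher at 48 h than in both other groups, with 68.2 ± 7.64 CPM at d14, 125 ± 1.71 CPM at 48 h and 74.3 ± 8.20 CPM in uninjured cells. Its rise at 48 h over uninjured was 0.74 ± 0.12 in log2 (edgeR adjusted p = 9.92e-04). Gpx8, an ER peroxidase, and Qsox1, a sulfhydryl oxidase, were higher than in uninjured cells in both groups, with 13.8 ± 2.21, 5.88 ± 0.885 and 0.706 ± 0.563 CPM for Gpx8 and 24.4 ± 2.13, 19.1 ± 1.44 and 10.7 ± 0.636 CPM for Qsox1. Txndc5, Tmx3 and Tmx4, all thioredoxin-domain proteins of the ER, were higher at d14 than at 48 h, by 0.78 ± 0.12, 0.72 ± 0.12 and 0.88 ± 0.15 in log2. P4ha1, a collagen prolyl hydroxylase subunit, was lower by 0.98 ± 0.13. These 4 had edgeR adjusted p of 2.87e-04 to 0.00121.

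The 30 other genes of degradation had 1 (3.33%) higher and 12 (40.0%) lower at d14 than in uninjured cells, against 25.1% and 20.7% of all tested genes. The counts at 48 h over uninjured were 0 higher and 11 (36.7%) lower, against 17.4% and 11.7% of all genes. Those at d14 over 48 h were 3 (10.0%) higher and 7 (23.3%) lower, against 16.8% and 16.3%. Sel1l3, a relative of Sel1l, had 35.3 ± 7.16 CPM at d14, 51.6 ± 4.53 CPM at 48 h and 109 ± 4.59 CPM in uninjured cells. March6, an ER ubiquitin ligase, had 121 ± 20.7, 138 ± 27.6 and 283 ± 43.4 CPM in the same order. Ngly1, which strips glycans from exported proteins, and Erlin1, of the ER lipid raft complex, were also lower in both, with 22.4 ± 0.629, 31.8 ± 3.61 and 49.4 ± 1.80 CPM for Ngly1 and 36.2 ± 1.66, 69.6 ± 15.9 and 107 ± 7.24 CPM for Erlin1. Selenok and Aup1, both membrane proteins of degradation complexes, were lower at d14 than at 48 h by 0.75 ± 0.12 and 0.73 ± 0.13 (edgeR adjusted p = 0.00105 and 0.00159).

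The 35 other genes of translocation into the ER and of early glycosylation had 3 (8.57%) higher and 10 (28.6%) lower at d14 than in uninjured cells, against 25.1% and 20.7% of all tested genes. At 48 h, 4 (11.4%) were higher and 0 lower than in uninjured cells, against 17.4% and 11.7% of all genes. At d14, 0 were higher and 14 (40.0%) lower than at 48 h, against 16.8% and 16.3%. Ostc, of the oligosaccharyltransferase, had 20.6 ± 4.29 CPM at d14, 29.7 ± 2.93 CPM at 48 h and 16.0 ± 1.55 CPM in uninjured cells. Ost4, a further subunit, had 43.5 ± 4.47, 93.6 ± 14.9 and 69.7 ± 6.13 CPM in the same order. Spcs3, of the signal peptidase, and Ssr2, of the translocon-associated complex, were higher at 48 h than in uninjured cells, by 0.59 ± 0.13 and 0.39 ± 0.12 in log2 (edgeR adjusted p = 0.00643 and 0.0247). Lower at d14 than at 48 h were Ost4 by 1.11 ± 0.14, Ssr3 by 0.76 ± 0.13, Magt1 by 0.71 ± 0.16, Srp9 by 0.55 ± 0.10 and Spcs1 by 0.49 ± 0.11 in log2 (edgeR adjusted p of 2.22e-04 to 0.00728). They encode a glycosyltransferase subunit, a translocon partner, a further glycosyltransferase subunit, a part of the signal recognition particle and a signal peptidase subunit.

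**Figure D4:**
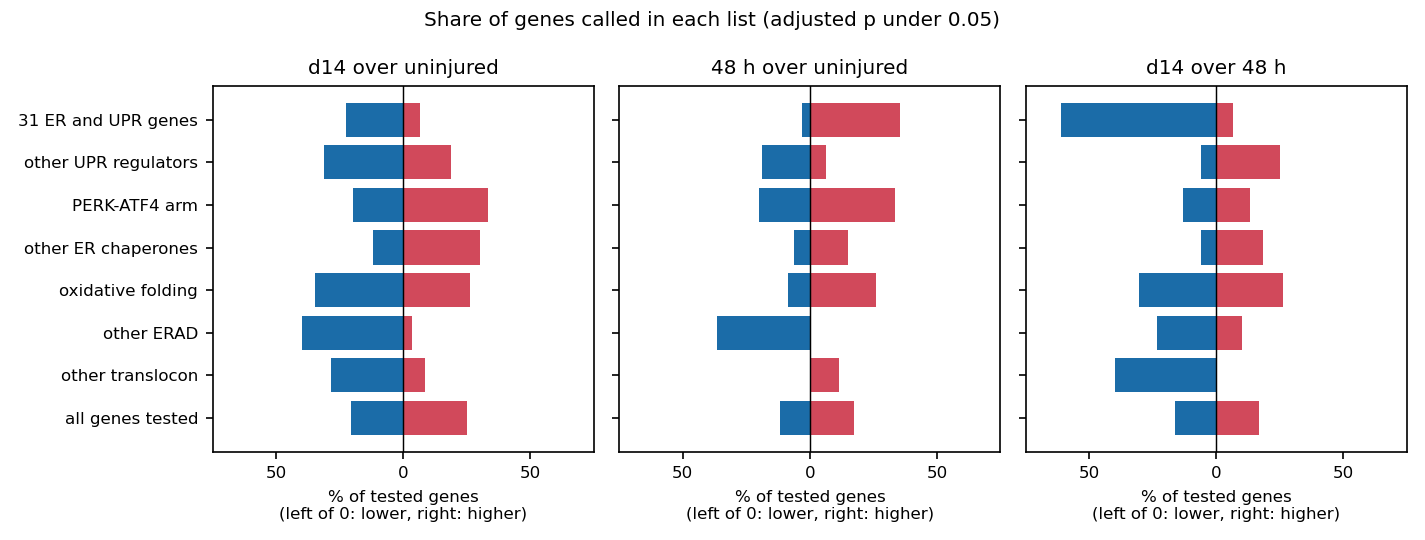
Share of tested genes in each list that were higher (right of 0) or lower (left of 0) at an edgeR adjusted p under 0.05 on the TMM scale, for d14 over uninjured, 48 h over uninjured and d14 over 48 h cells, with all 15519 tested genes in the bottom row. The 31 genes have 11 higher and 1 lower at 48 h over uninjured, and 19 lower and 2 higher at d14 over 48 h, where library size alone gave 5 lower and 9 higher.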

How the data were processed

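The authors deposited a table of RSEM expected counts per gene and library, as whole numbers on no common scale. RSEM 1.2.28, STAR 2.6.1, DESeq2 1.26.0, bcl2fastq 2.20, R 3.6.3 and the builds mm10 and GRCh38 are listed, with no roles, per the submitters' processing notes. Annotation release and strand setting are not given there, so overlapping genes may share reads, and RSEM splits reads among near-identical copies. Counts were used as deposited, with 92 spike-ins at 0 left out. Exon lengths and coordinates (1-based, GRCm38) are from GENCODE M21.

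Counts were fitted with edgeR 4.0.16 in R 4.3.3: filterByExpr (count at least 10, total at least 15, which kept 15519 genes), TMM, a quasi-likelihood F-test on all 9 libraries by group, and Benjamini-Hochberg adjustment over all tested genes, called at 0.05. The code was tested on simulated counts. Alternatives were other scalings, no filter, limma voom 3.58.1, DESeq2 1.42.0, only the groups compared, a replicate block and each library left out. Reads carry no molecular identifiers, so counts are not independent molecules. Replicates are labelled as biological, with no animal named.

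The 31 genes and all lists were chosen with earlier results of these data known. Named outside the 31 are up to 3 called genes per list and comparison with the smallest p.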

Additional observations from a re-analysis of the deposited data

Results flagged for a closer look

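The effect against uninjured cells differed between d14 and 48 h for 21 of the 31 genes by the edgeR test of d14 against 48 h, which is the test of that difference since both share the uninjured libraries. Of all tested genes, 16.3% were lower and 16.8% higher in that test. On library size alone 5 of the 31 were lower and 9 higher, against 6.02% and 43.9% of all genes. Pdia4, Ppib, Hyou1, Derl2, Pdia6, Derl1 and P4hb changed sign there. The differences in log2, d14 minus 48 h, were -3.05 for Derl3, -1.37 for Creld2, -1.33 for Manf, -1.29 for Sdf2l1, -1.20 for Hspa5, -1.03 for Herpud1, -0.85 for Edem1, -0.82 for Dnajc3, -0.74 for Calr, -0.70 for Xbp1, -0.69 for Dnajb11, -0.68 for Hsp90b1, -0.56 for P4hb, -0.52 for Derl1, -0.48 for Pdia6, -0.46 for Derl2, -0.43 for Hyou1 and -0.34 for both Pdia4 and Ppib. Ern1 and Eif2ak3 differed the other way, by 0.64 and 0.48.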

How the results depend on the processing

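Results were recomputed under 16 alternatives. Fold changes of the 31 genes were followed under each where called or where the gene rose at 48 h, 52 in all. Of the 832 recomputed values, 709 kept direction and side of the threshold, 90 lost the call, 11 gained one and 22 changed sign. Library size alone moved most: at d14 over uninjured cells 7315 genes were higher and 1417 lower, and 18 and 2 of the 31, and at d14 over 48 h 6812 and 934 genes, and 9 and 5 of the 31. It turned the sign of 11 of the 31 genes at d14 over uninjured and of 16 at d14 over 48 h. Among the 52 these were, at d14 over uninjured, Hspa5 (0.44), Canx (0.19) and Selenos (0.098), and at d14 over 48 h Pdia4 (0.24), Ppib (0.23), Hyou1 (0.16), Derl2 (0.13), Pdia6 (0.096), Derl1 (0.046) and P4hb (0.012); the scaling itself moved the median of all genes. At 48 h 0 of the 31 were lower on library size alone, with no filter and with only the groups compared; 1 was in the fit reported and by DESeq2. At d14 over uninjured 1 of the 31 was higher with no filter and with only the groups compared, 4 by limma voom, and 11 were lower with only the groups compared. Near 0 at d14 over uninjured, no filter gave -0.030 for Hsp90b1 and -0.031 for Creld2, and only the groups compared -0.023 and -0.025. The cause of these shifts was not tested.

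With single libraries left out, d14 over uninjured ranged from -0.087 to 0.061 for Hsp90b1, -0.12 to 0.14 for Creld2, -0.12 to 0.31 for Xbp1 and -0.17 to 0.89 for Derl3. Counts ranged from 1147 to 1995 for genes lower at 48 h, and among the 31 from 0 to 1 lower at 48 h, 1 to 2 higher at d14 over uninjured, 1 to 2 higher and 10 to 20 lower at d14 over 48 h. Over all genes 3209 to 4426 were higher at d14 over uninjured. At d14 over 48 h, 1755 to 2496 were higher and 1827 to 2645 lower.

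Replicate numbers are not said to pair the libraries. Deviations from the group mean correlated across genes at -0.127 to 0.019 between same-numbered libraries and at -0.047 to 0.097 between others. With 3 libraries a group, these values cannot exclude a shared batch. With the replicate block, the 31 genes gave 10 higher and 1 lower at 48 h, 2 higher and 7 lower at d14 over uninjured, and 2 higher and 17 lower at d14 over 48 h. Depth limits Derl3 most, at 4 to 52 counts a library.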
